A study of Bos taurus with 2 samples.

Results

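Cluster 5 is 1 of the 15 groups into which the authors divided cultured bovine satellite cells by their single-cell mRNA expression, and it is labelled here as PAX3-enriched progenitors. Its members were taken as the authors' own cluster 5. The deposited average expression of every gene in every cluster converts to whole sums of molecules, and these sums fixed the cluster of each cell by elimination. The result was 1641 cells out of 19096, a share of 8.59% (95% interval by the exact binomial method, 8.20 to 9.0).

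The cells came from the longissimus muscle of 1 untreated Holstein bull calf aged 2 weeks, and had been isolated by pronase digestion and differential centrifugation and kept for 1 week in growth medium. They are therefore progeny of satellite cells in culture, not satellite cells in their niche, and other cells of the muscle were not removed by a sort. The same cells gave 2 libraries on the 10x Genomics platform, called libraries 1 and 2 here. On this platform a short random tag, the unique molecular identifier (UMI), is added to each captured mRNA molecule along with a barcode of its cell, and the values count tags. Because both libraries hold the cells of 1 calf, the spread between them reflects only cell sampling and library making, and differences between animals are not covered.

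Library 1 held 859 cells of cluster 5 (8.64% of 9939 cells) and library 2 held 782 (8.54% of 9157 cells), so the cluster was equally frequent in both. The cells of cluster 5 gave 12735621 UMIs in library 1 and 12187835 UMIs in library 2. Their median depth was 14057 and 15028 UMIs per cell, with a range of 4621 to 42274 over both libraries, close to the median of 14889 UMIs over all cells. In the 2 libraries 27 barcodes occurred in both, and 3 cells of cluster 5 carried such a barcode. Levels below are UMIs of a gene per 10000 UMIs of all genes, from the pooled cells of a cluster in 1 library, and errors are the SD of the 2 libraries. No p-value is given for cluster 5 against other cells, because the clusters were made from these same counts. A gene is called higher or lower where the levels differed by 1.5-fold or more in the same direction in each library.

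Satellite cells are the stem cells of skeletal muscle. PAX3 and PAX7 are paired-box transcription factors of muscle progenitors, and MYF5 and MYOD1 are the basic helix-loop-helix factors that commit such cells to the myogenic lineage. MYOG, encoding myogenin, is switched on when myoblasts leave the cell cycle and differentiate, after which the genes of the contractile apparatus follow. A progenitor that divides passes through G1, when replication origins are licensed by loading of the MCM helicase, through S phase, when DNA is copied, and through G2 and mitosis.

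PAX3 and MYF5 were both at higher levels in cluster 5 than in all other cells in each library, but neither marked cluster 5 alone and PAX3 was sparse. PAX3 (ENSBTAG00000009950) gave 22 UMIs in the 859 cells of library 1 and 31 UMIs in the 782 cells of library 2. These correspond to 0.0173 and 0.0254 UMIs per 10000 UMIs, against 0.0102 in all other cells of either library. The log2 ratio to all other cells was 0.79 in library 1 and 1.34 in library 2, or 1.07 ± 0.39 (SD, n = 2 libraries). The mean PAX3 level of cluster 5, 0.0214 (exact Poisson 95% interval 0.0159 to 0.0278), was the second among the 15 clusters, after 0.0280 in cluster 8 (0.0203 to 0.0368). The intervals of clusters 5 and 8 overlapped, and so did the values of their libraries, which were 0.0193 and 0.0368 in cluster 8. Within each library the value of cluster 8 was above that of cluster 5. With intervals that overlapped, the 2 clusters were not told apart in PAX3 at this depth. The interval of cluster 5 also overlapped that of cluster 4 (0.0107 to 0.0190), but not that of cluster 9 (0.00131 to 0.00598). PAX3 lay below the level of 0.05 UMIs per 10000 that was required of a gene before it could be called.

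At least 1 PAX3 UMI was found in 43 of the 1641 cells of cluster 5 (2.62%, exact binomial 95% interval 1.90 to 3.51). In cluster 9, whose cells were rich in the fibro-adipogenic marker PDGFRA, PAX3 was found in 8 of 1080 cells (0.741%, 0.320 to 1.45) at a median depth of 23011 UMIs, and in the MYOG-rich cluster 12 in 4 of 627 cells (0.638%) at 19113 UMIs. The unthinned share in cluster 5 was thus above the share in these deeper cells, which are not known for PAX3 and are taken as a measure of background, and was close to that in cluster 4 (2.55%, 1.86 to 3.39). Its interval also overlapped those of cluster 6 (2.03%, 1.39 to 2.86) and cluster 11 (2.01%, 1.18 to 3.20). When every cell was thinned to 5000 UMIs, which left out 2 cells of cluster 5, PAX3 was found in 18 of 1639 cells (1.10%, 0.652 to 1.73) of cluster 5, in 1.46% of cluster 8 (0.867 to 2.30), in 0.850% of cluster 4 (0.477 to 1.40) and in 0.185% of cluster 9 (0.0224 to 0.667). At this even depth the interval of cluster 5 overlapped all 3, that of cluster 9 only at its end. The intervals of cluster 1 (0.34 to 1.00) and cluster 6 (0.35 to 1.25) overlapped it as well. Those of cluster 2 (0.10 to 0.62) and cluster 3 (0.03 to 0.43) lay below it. No cell of cluster 5 had more than 4 PAX3 UMIs. PAX3 mRNA was not detected in 1598 cells of the cluster, and at this depth that does not show its absence from them.

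MYF5 (ENSBTAG00000026972) was at 1.21 UMIs per 10000 in library 1 and 1.27 in library 2 of cluster 5, against 0.957 and 0.888 in all other cells. Both libraries of cluster 5 were above both values of the other cells, with a log2 ratio of 0.43 ± 0.12, which did not reach 1.5-fold in either library. For MYF5, cluster 5 ranked 3 of the 15 clusters with a mean level of 1.24 ± 0.0363, after cluster 8 (1.57) and cluster 1 (1.55). A MYF5 UMI was found in 1105 cells of cluster 5 (67.3%, 65.0 to 69.6), compared with 17.3% of the cells of cluster 9. After thinning to 5000 UMIs these shares were 40.3% and 4.82%, so the share in cluster 5 was above that in cluster 9 at even depth. Of the 43 cells with PAX3, 36 also had MYF5 (83.7%), and these PAX3 cells were deeper than the rest, with a median of 15663 UMIs against 14432.5.

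PAX7, the other paired-box gene, was not higher in cluster 5. Its level was 0.00707 and 0.00492 UMIs per 10000 in the 2 libraries of cluster 5, from 9 and 6 UMIs, against 0.0064 and 0.00605 in all other cells. The log2 ratios of the libraries, 0.21 and −0.19, had opposite signs, and cluster 5 was only eighth among the 15 clusters. A PAX7 UMI occurred in 15 cells of cluster 5 (0.914%, 0.513 to 1.5). None of them had PAX3, but so few cells had either gene that this says nothing of the relation of both. In cluster 9 the PAX7 share was 0.278% (0.0573 to 0.810) and in cluster 4 it was 2.21%. The label was given from PAX3 in these same counts, so the PAX3 values describe cluster 5 and do not test its label. Neither PAX3 nor MYF5 met the rule for a call against all other cells, and PAX7 was not higher.

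**Figure D1:**
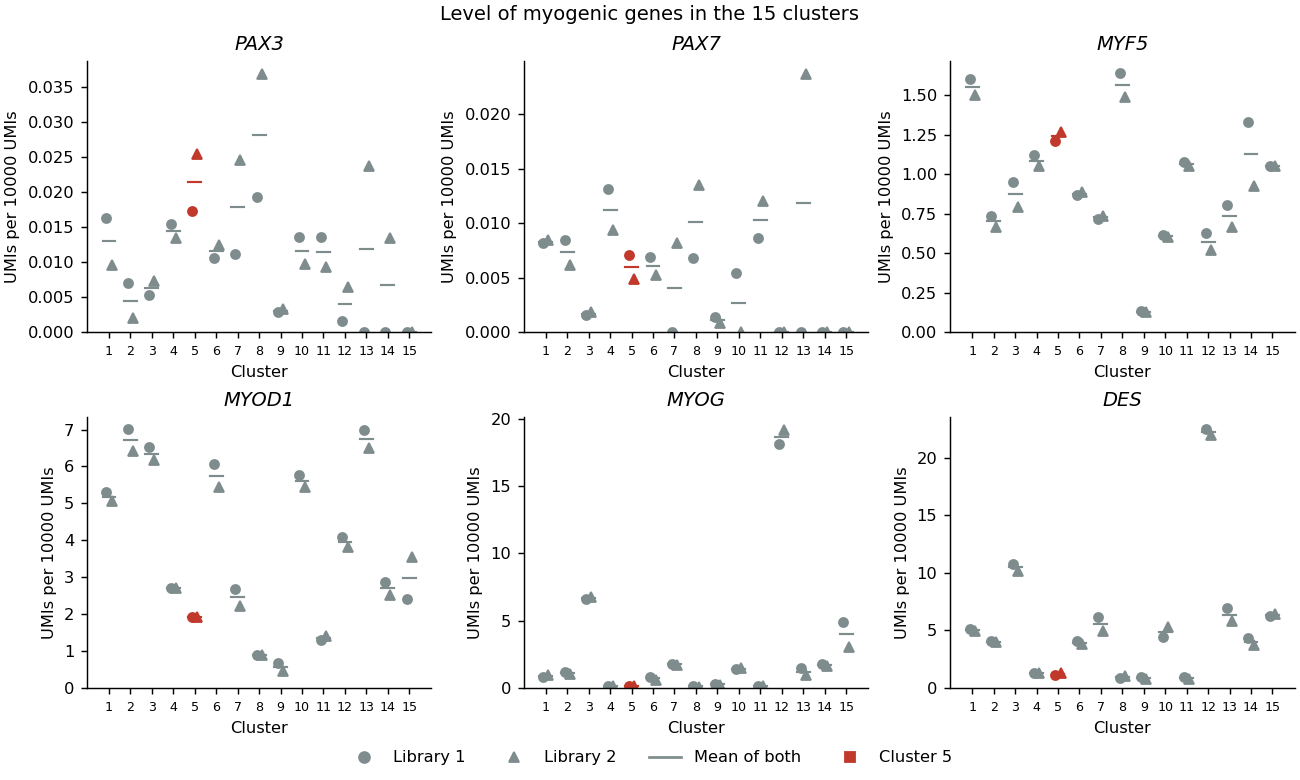
Level in UMIs per 10000 UMIs (vertical axes, each from 0) of 6 myogenic genes in the 15 clusters (horizontal axes). Circles are library 1, triangles library 2 and bars the mean of both, with cluster 5 in red. Cluster 5 ranked 2 for PAX3 and 3 for MYF5, and was among the lower clusters for MYOD1, MYOG and DES.

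The genes of later myogenic steps were low in cluster 5. MYOD1 was at 1.91 and 1.93 UMIs per 10000 in libraries 1 and 2, against 4.39 and 4.12 in all other cells, a log2 ratio of −1.2 and −1.09. Among the 15 clusters cluster 5 was the twelfth for MYOD1, but its level was well above that in cluster 8, which had 0.882 and 0.902. MYOD1 was thus the named myogenic factor that separated clusters 5 and 8, with a log2 ratio of 1.12 and 1.10, and it was called higher in cluster 5. Compared with cluster 4 (2.70 and 2.72) and cluster 11 (1.30 and 1.41), the MYOD1 level of cluster 5 was between them and was not called different from either. The level was uneven among the cells: 539 cells of cluster 5 had no MYOD1 UMI, 287 had more than 5, and the highest had 37. MYF5 and MYOD1 occurred together in 748 cells, and MYOD1 was found in 67.7% of the cells with MYF5 and in 67.2% of all cells of the cluster, so the detection of MYOD1 was about as frequent with MYF5 as without regard to it.

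MYOG was at 0.122 and 0.117 UMIs per 10000 in cluster 5, against 2.29 and 2.33 in all other cells, a log2 ratio of −4.27 on average. In cluster 12 the MYOG level was 18.1 and 19.2. DES, encoding the muscle intermediate filament desmin, was at 1.15 and 1.29 in cluster 5 against 4.95 and 4.79. A MYOG UMI was found in 242 cells of cluster 5 (14.7%), and after thinning to 5000 UMIs in 6.22% (5.10 to 7.50). In cluster 9 the shares were 23.6% and 7.22% (5.75 to 8.93), so the share in cluster 5 was not above that in cluster 9.

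Of 62 genes of muscle structure and contraction found in the data, 23 reached the level of 0.05, of which 19 were called lower than in all other cells and none was called higher. Over all 8402 genes compared, 4.56% were called lower and 1.52% higher. The level was required of the mean of both groups, so a muscle gene could pass through the other cells alone, and the count of muscle genes is a description of those that passed. Against clusters 8, 4 and 11 only 16 or 17 of the list passed. Of these, 1 was called higher than in cluster 8, 1 lower than in cluster 4 and 2 higher than in cluster 11, and no others. Over all genes 5.37% were higher than in cluster 8, 4.19% lower than in cluster 4 and 1.56% higher than in cluster 11. MYH3, the embryonic myosin heavy chain, was at 0.0479 and 0.0648 UMIs per 10000 in cluster 5 against 1.08 and 1.19 in all other cells. MYLPF, a fast myosin light chain, was at 0.336 and 0.414 against 6.50 and 6.30. The 4 genes not called against all other cells were the tropomyosins TPM1, TPM2 and TPM3 and the calcium pump gene ATP2A2 (log2 ratio −0.17). The tropomyosins, which non-muscle cells also express, had log2 ratios of 0.04, 0.11 and 0.05. TPM1 and ATP2A2 were chosen after their values were seen. Of the 23 myogenic regulators past the level, 6 were lower and none higher: MYOG, MYOD1, the fusion factor MYMK (log2 ratio −4.49), MEF2D (−1.17), TCF12 (−0.92) and EYA1 (−0.75), of which the last 3 were chosen after their values were seen. MYMK, at 0.00942 and 0.0107 UMIs per 10000 in cluster 5, passed the level through the other cells alone.

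The list of satellite cell markers and receptors summed to 23.6 UMIs per 10000 in each library of cluster 5, below the 33.2 and 32.5 of all other cells (log2 ratio −0.48). Of its 28 genes 16 reached the level, none was called higher and 2 were called lower, beside 1.52% and 4.56% of all genes, namely NES, encoding the intermediate filament nestin, and CD82, encoding a tetraspanin. NES was at 6.25 and 6.34 UMIs per 10000 against 15.8 and 15.4 in all other cells. The highest ratio among the 16 genes past the level was that of the caveolin gene CAV1. It was at 2.6 and 2.45 against 1.68 and 1.64 (log2 ratio 0.60), and missed the call in 1 library.

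Cluster 5 had no sharp border. The correlation of its expression profile with those of the other clusters, over 8438 genes on a log2 scale, was highest for cluster 11 (r = 0.9885), followed by cluster 8 (0.9823), cluster 4 (0.982) and cluster 6 (0.981), and lowest for cluster 7 (0.8573). These profiles share the libraries and the culture, so the values are descriptive. When each cell was given to the cluster whose profile fitted its counts best, 1313 of the 1641 cells stayed in cluster 5, 164 went to cluster 11 and 60 to cluster 8. The 30 nearest neighbours of a cell were computed in 10 principal components of log counts, with every cell scaled to 14889 UMIs and none thinned. Of these neighbours, 74.1% in library 1 and 74.6% in library 2 were cells of cluster 5. The remaining neighbours were spread over clusters 8 (6.67% and 5.06%), 1 (5.53% and 5.46%), 11 (5.51% and 6.01%), 4 (4.17% and 4.39%) and 6 (2.97% and 3.44%). Of these, cluster 11, the nearest by profile, is used below for comparison, together with clusters 8 and 4, which were chosen with earlier results of these data known. Cluster 1, which had more of the neighbours than cluster 4, was not compared.

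A doublet is a droplet that captured more than 1 cell. Of the cells of cluster 5, 237 (14.4%) were among the 8% of all cells with the highest doublet scores, a share below that of cluster 6 (18.5%) and cluster 9 (14.7%) and above that of cluster 4 (11.5%), cluster 11 (4.97%) and cluster 8 (0.967%). Without these cells the mean log2 ratio to all other cells was 1.14 for PAX3 and 0.47 for MYF5, both above the values with them.

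Against all other cells, 128 of 8402 genes were called higher in cluster 5 and 383 lower. This balance depended on the rule, as the counts of the tests below show. With equal weights of the other clusters 76 were higher. With no filter on low levels 2167 were higher and 1056 lower, but these counts do not show the balance of the data. Without the filter, the constant added to each UMI sum shifts the ratios of genes with almost no UMIs, since the compared totals differ. The edgeR test gave 1626 higher and 1607 lower genes (2804 and 2688 once blocked by library), and DESeq2 gave 1375 and 1301. The 10 highest ratios among genes at 1 UMI per 10000 or more are given first. PRSS23, encoding a secreted serine protease, was at 1.81 and 1.72 UMIs per 10000 in cluster 5 against 0.725 and 0.733 in all other cells, a log2 ratio of 1.28 ± 0.06. IGFBP5, encoding an insulin-like growth factor binding protein, was at 1.90 and 1.95 against 0.822 and 0.815. GJA1, encoding the gap junction protein connexin 43, was at 1.57 and 1.54 against 0.736 and 0.749. The values of both libraries lay close together in all 3 genes, which were chosen by the size of their ratios. The next were NDRG1, a stress-responsive gene (log2 ratio 0.98), FGF7, a fibroblast growth factor that signals to epithelia (0.96), PERP, encoding a membrane protein of cell junctions (0.92), and CREB3L1, a transcription factor anchored in the endoplasmic reticulum (0.87). PSAT1, an enzyme of serine synthesis (0.82), LGALS3, encoding galectin-3 (0.79), and CAPG, encoding an actin-capping protein (0.77), completed the 10.

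Most of these 10 genes were not at their highest in cluster 5. For 8 of them cluster 8 had the higher mean level, and for FGF7 (1.96 and 1.88 in cluster 5, 1.60 and 1.59 in cluster 8) cluster 11 had the higher level (2.13 and 2.42). CAPG was alike in clusters 5, 8 and 11. GJA1 showed a step through the compared clusters, from 2.53 and 2.46 in cluster 8 and 1.57 and 1.54 in cluster 5 to 1.01 and 0.974 in cluster 11 and 0.897 and 0.881 in cluster 4. It was called lower in cluster 5 than in cluster 8 and higher than in clusters 4 and 11.

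Of the 10 genes with the lowest ratios at 1 UMI per 10000 or more in the other cells, 8 belonged to differentiating muscle: MYH3, MYOG, MYLPF, the actins ACTA1 and ACTC1, the troponins TNNC1 and TNNC2, and NEB, encoding nebulin. ACTC1 had the highest level of these in the other cells, 23.5 in each library, and was at 1.66 and 1.87 in cluster 5. CDKN1C, encoding the cyclin-dependent kinase inhibitor p57, was at 0.685 and 0.775 against 7.72 and 7.93. CXCL5, encoding a chemokine, was at 0.130 and 0.148 against 1.07 and 1.05. Only 4 of these 10 genes were also called against any of the 3 compared clusters. CDKN1C (1.59 and 1.77 in cluster 4) and ACTC1 were lower than in cluster 4, CXCL5 was lower than in cluster 8, and TNNC2 was higher than in cluster 11.

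**Figure D2:**
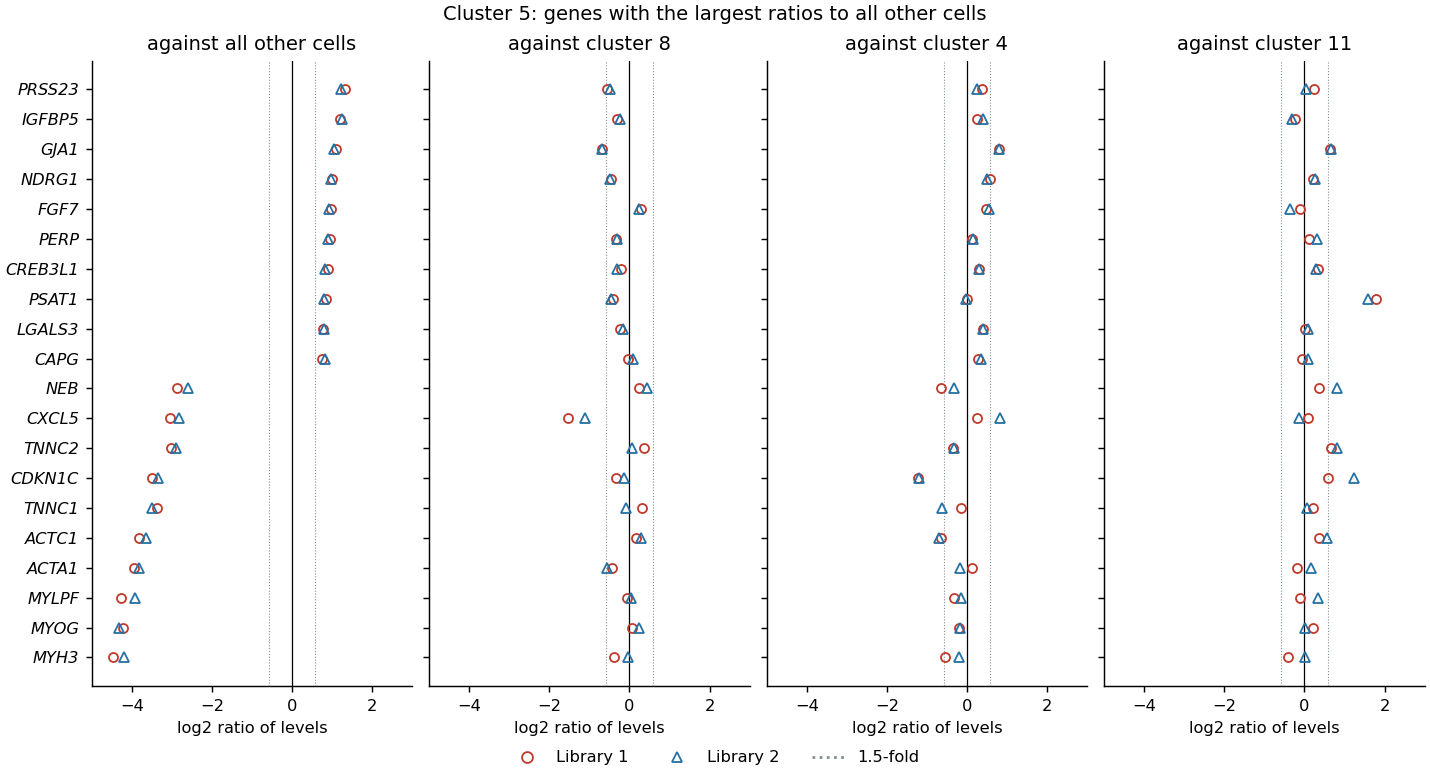
Log2 ratio of the level in cluster 5 to that in all other cells, cluster 8, cluster 4 and cluster 11 (panels), for the 10 genes with the highest and the 10 with the lowest ratio to all other cells, among genes at 1 UMI per 10000 or more in the higher group. Circles are library 1, triangles library 2, and the dotted lines mark 1.5-fold. The muscle genes were far below all other cells, with MYH3 at a mean of −4.33, and much nearer to 0 against the 3 compared clusters.

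In the cell cycle lists cluster 5 lay near all other cells for S phase, where it was 7 of 15 clusters in order, and well below them for G2/M, where it was 11. The 43 S phase genes summed to 28.6 and 29.6 UMIs per 10000 in cluster 5 and to 26.5 and 25.9 in all other cells. The 54 G2/M genes summed to 33.1 and 32.7 in cluster 5 against 74.4 and 72.6, a log2 ratio of −1.16. Of the 51 G2/M genes past the level 42 were lower, against 4.56% of all genes, none was higher, and all 51 had a negative ratio in both libraries. Here and in the comparisons below, a cell cycle gene could pass the level through 1 group alone. Such counts describe the genes that passed. TOP2A, encoding topoisomerase II alpha, was at 0.560 and 0.545 against 2.91 and 2.49, and NUSAP1, a spindle protein gene, at 0.241 and 0.208 against 1.17 and 1.10.

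Within the S phase list 5 of 41 genes were higher and 1 was lower, where 1.52% of all genes were higher and 4.56% lower. The higher genes were CDC6, a factor that loads the MCM helicase on origins, at 0.218 and 0.217 against 0.119 and 0.112, and CDCA7 (log2 ratio 0.81), together with DTL, WDR76 and GMNN. GMNN, encoding the licensing inhibitor geminin, was at 0.945 and 0.999 against 0.612 and 0.598. RAD51AP1, of homologous recombination, was the lower one (−0.74). DTL and WDR76 were chosen after their values were seen. Of the 22 licensing and helicase genes past the level 2 were higher, CDC6 and GMNN, and 1 was lower. The lower gene was DBF4, which encodes the activator of the CDC7 kinase (−0.85). None of the 30 genes of the replication fork and nucleotide synthesis was called. Among the 23 regulators of the transition from G1 to S phase, 7 were lower and none higher, including CCNA2, encoding cyclin A2 (0.217 and 0.193 against 0.629 and 0.651), and CDKN1C.

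**Figure D3:**
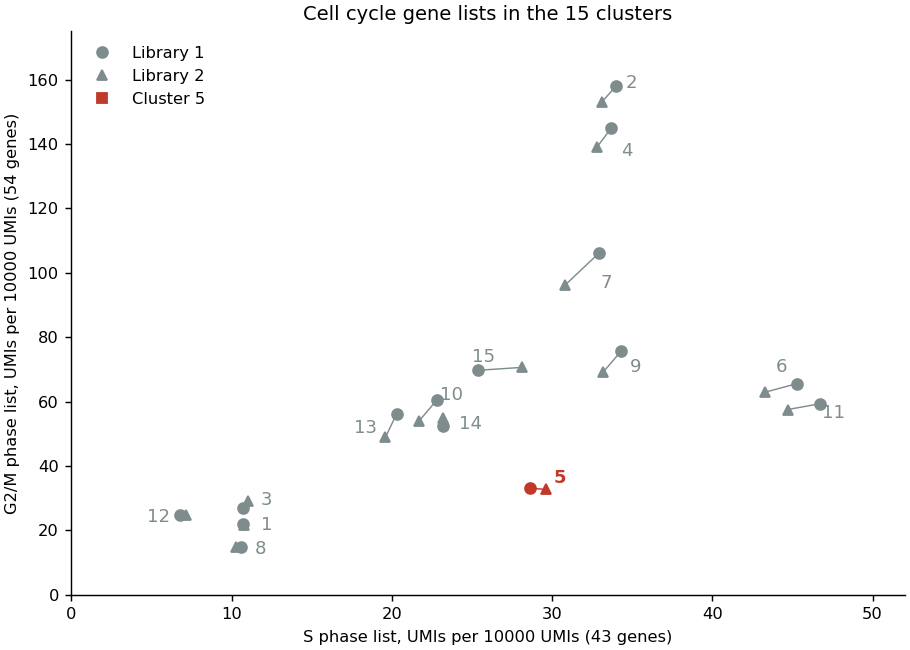
Summed level of the S phase list (horizontal axis) and the G2/M list (vertical axis), in UMIs per 10000 UMIs, for the 15 clusters (numbers). Circles are library 1 and triangles library 2, joined by a line. Cluster 5 (red) lay at 28.6 and 29.6 on the S phase axis and at 33.1 and 32.7 on the G2/M axis, apart from the cluster 8 group at low values of both lists and from clusters 2 and 4 at high G2/M.

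Cluster 8, the cluster with the highest PAX3 level, was far below cluster 5 in replication genes. Of 8396 genes 451 (5.37%) were higher in cluster 5 than in cluster 8 and 243 (2.89%) were lower, and 1 library alone gave 383 to 438 lower genes. Among genes at 1 UMI per 10000 or more the largest ratio was that of RRM2, a subunit of ribonucleotide reductase, at 1.2 and 1.23 UMIs per 10000 in cluster 5 against 0.178 and 0.174 in cluster 8 (log2 ratio 2.78). UHRF1, which maintains DNA methylation at the fork, was at 1.32 and 1.28 against 0.196 and 0.213. MCM3, of the replicative helicase, was at 1.39 and 1.46 against 0.353 and 0.304, and PCNA, the sliding clamp of DNA polymerases, at 2.46 and 2.58 against 0.664 and 0.642. The condensin gene SMC2 completed the 5 with a log2 ratio of 1.97. None of these 5 genes was called different between cluster 5 and all other cells, and all 5 were lower than in cluster 11. Cluster 8 was not alone in its low replication genes. Mean sums of the S phase list were 10.8, 10.8 and 6.95 UMIs per 10000 in clusters 1, 3 and 12, and 10.4 in cluster 8.

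By list, 38 of 41 S phase genes and 17 of 22 licensing genes were higher in cluster 5 than in cluster 8. So were 24 of 28 fork and nucleotide genes and 44 of 48 G2/M genes, and none of these lists had a lower gene. Beside these, 5.37% of all genes were higher and 2.89% lower in this comparison. A gene could pass the level through cluster 5 alone, so the counts describe the genes that passed. The S phase list was at 10.6 and 10.3 UMIs per 10000 in cluster 8 and the G2/M list at 14.9 in each library. Of the 36 nucleolus and ribosome biogenesis genes past the level 7 were higher and none lower. Their list summed to 61.9 and 60.4 in cluster 5 and 45.0 and 44.8 in cluster 8. Of the 19 cholesterol genes past the level 4 were higher, beside 5.37% of all genes, and the sums were 14.3 and 15.2 against 10.1 and 10.2. Those 4, HMGCS1 (0.84), MVD (0.88), IDI1 (0.74) and NSDHL (0.66), are enzymes of the sterol pathway, and all but IDI1 were chosen after their values were seen.

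In the other direction, the 5 lowest ratios to cluster 8 among genes at 1 UMI per 10000 or more were of genes with varied roles. NUPR1, encoding a stress-induced nuclear protein, was at 0.306 and 0.257 against 1.24 and 1.21. SERPINF1, encoding the secreted pigment epithelium-derived factor, was at 0.553 and 0.569 against 1.85 and 1.93. SAT1, of polyamine breakdown, had a log2 ratio of −1.30, SYT4, a synaptotagmin gene, of −1.05 and ALDH1L2, a mitochondrial folate enzyme gene, of −0.98. Over all genes 5.37% were higher than in cluster 8 and 2.89% lower. Of the 12 collagen genes past the level 5 were lower (COL1A1, COL1A2, COL5A2, COL11A1 and COL14A1) and none higher, and the collagen sum was 166 and 168 UMIs per 10000 in cluster 5 and 265 and 263 in cluster 8. COL1A1, which encodes a chain of type I collagen, was at 47.8 and 46.7 against 84.3 and 82.2. Among 8 p53 targets past the level, 4 were lower, namely the cell cycle inhibitor gene CDKN1A (−0.92), SESN2 (−1.04), SESN1 (−0.70) and TP53INP1 (−0.74). SESN1 and the collagen genes other than COL1A1 were chosen after their values were seen.

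Cluster 4, another cluster of low MYOD1 and MYOG, was far above cluster 5 in G2/M genes. Of 8399 genes 69 (0.822%) were higher in cluster 5 than in cluster 4 and 352 (4.19%) were lower, and 1 library alone gave 118 to 122 higher genes. Of 53 G2/M genes past the level 51 were lower and none higher, and the list summed to 145 and 139 UMIs per 10000 in cluster 4. TOP2A, at 8.10 and 6.88 in cluster 4, had the lowest ratio of genes at 1 UMI per 10000 or more (−3.76), followed by NUSAP1 (−3.66), PLK1, the mitotic polo-like kinase gene (−3.62), and ASPM, a spindle pole gene (−3.58). MKI67, encoding the proliferation antigen Ki-67, was at 0.808 and 0.852 in cluster 5 against 7.78 and 7.28. For all 5 the cluster 5 level was a small part of that in cluster 4.

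For S phase the 2 clusters were closer, with sums of 33.7 and 32.8 in cluster 4. Of 42 S phase genes past the level 4 were higher and 7 lower, beside 0.822% and 4.19% of all genes. The 4 higher genes included CDC6 (1.69) and CDCA7 (1.13), and also CCNE2, encoding a cyclin E (0.71), and DTL (0.94). CCNE1, the other cyclin E gene, was higher too (0.87). CCNE2, DTL and CCNE1 were chosen after their values were seen. Among the highest ratios to cluster 4 were those of GJA1, given above, and of ACACB, an acetyl-CoA carboxylase gene (1.03 and 1.06 against 0.448 and 0.422). MT2A, a metallothionein gene, was at 4.05 and 4.43 against 2.35 and 2.57, and CTGF, encoding connective tissue growth factor, at 4.07 and 3.90 against 2.28 and 2.45. No collagen gene of 12 was called, with sums of 167 and 173 in cluster 4.

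Cluster 11, the nearest by profile, had more of both cell cycle lists than cluster 5. Of 8400 genes 131 (1.56%) were higher in cluster 5 than in cluster 11 and 295 (3.51%) were lower. Of 42 S phase genes 19 were lower and none higher, and of 51 G2/M genes 38 were lower and none higher. The sums in cluster 11 were 46.7 and 44.7 for S phase and 59.3 and 57.5 for G2/M. Among the lowest ratios of genes at 1 UMI or more were those of the linker histone genes HIST1H1E (0.466 and 0.538 against 1.67 and 1.73) and HIST1H1C (log2 ratio −1.47), and those of TOP2A (−1.69) and MKI67 (−1.53). The counts of genes called against cluster 11 depended on requiring both libraries, since 1 library alone gave 208 to 274 higher and 460 to 517 lower genes. The imbalance also depended on the scaling. With TMM factors 191 genes were higher and 219 lower, and with DESeq2 size factors 192 and 217.

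The 5 genes with the highest ratios to cluster 11 at 1 UMI per 10000 or more in cluster 5 follow. ALDH1L2 was at 1.06 and 1.08 UMIs per 10000 in cluster 5 against 0.309 and 0.350 in cluster 11. PSAT1 was at 2.53 and 2.67 against 0.737 and 0.893, and PSPH, which completes serine synthesis, at 2.99 and 2.75 against 1.02 and 1.05. MKNK2, a kinase gene of translation control (1.96 and 1.92 against 0.585 and 0.655), and ATF5, a stress-induced transcription factor gene (1.82 and 1.80 against 0.618 and 0.617), were the other two. All 5 genes were at intermediate levels in cluster 5, since their levels in cluster 8 were above those in cluster 5, called for ALDH1L2, MKNK2 and ATF5 but not for PSAT1 and PSPH.

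The list of heat shock and unfolded protein response genes was split in the same comparison. Of its 24 genes past the level against all other cells 2 were higher, CHAC1 (0.83) and TRIB3 (0.81), and 4 were lower, the small heat shock genes HSPB8 (−1.29) and CRYAB (−0.82), and HSPH1 (−0.76) and HSPA1A (−0.68). Over all genes 1.52% were higher and 4.56% lower in that comparison. Against cluster 11, where 1.56% of all genes were higher and 3.51% lower, 5 were higher, namely TRIB3 (2.11), SESN2 (1.82), CHAC1 (1.52), ASNS (1.28) and DDIT3 (0.95), and 3 were lower. Those 5 are known targets of the amino acid and endoplasmic reticulum stress response, and the 3 lower ones were heat shock chaperones, HSPH1, HSPA8 and HSPA1A. Against cluster 8, where 5.37% of all genes were higher and 2.89% lower, SESN2, DDIT3 (−0.91) and TRIB3 (−0.76) were lower and none was higher. ASNS, DDIT3, HSPH1, HSPA8 and HSPA1A were chosen after their values were seen. The collagen list summed to 104 and 103 UMIs per 10000 in cluster 11, against 166 and 168 in cluster 5, with 3 genes higher in cluster 5 (COL1A1, COL1A2 and COL11A1) and none lower.

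**Figure D4:**
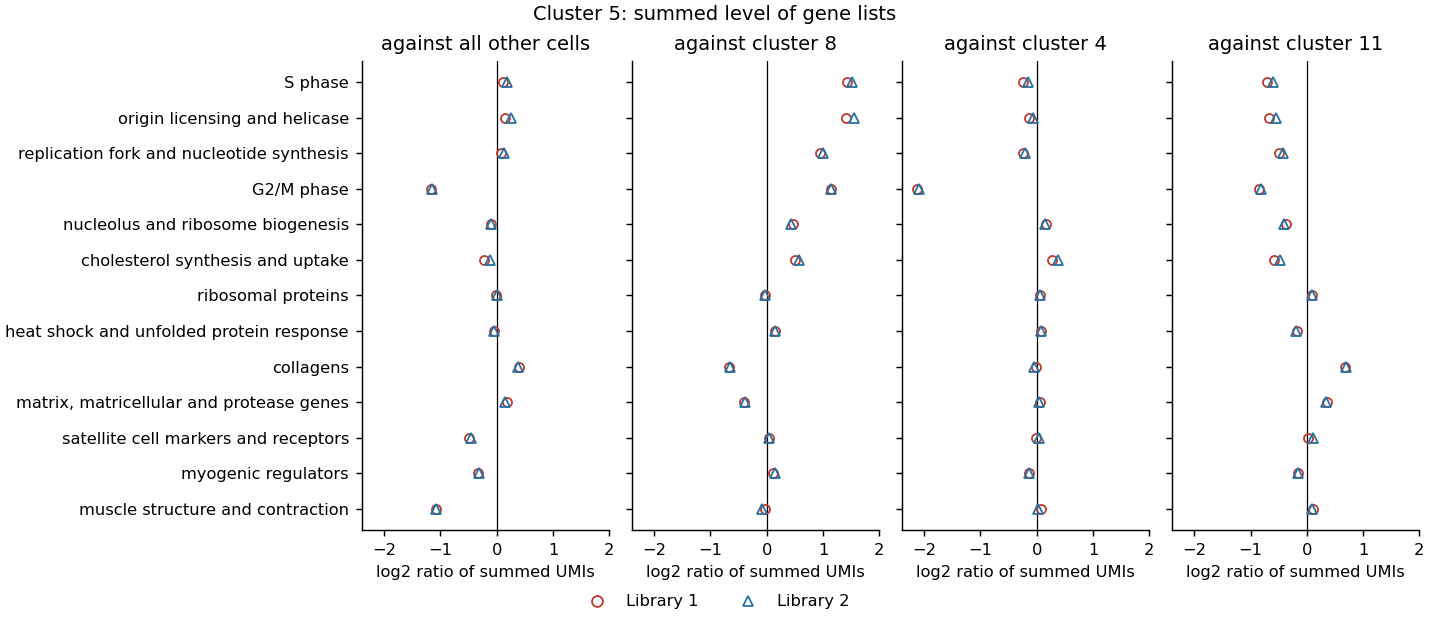
Log2 ratio of the summed UMIs of 13 gene lists in cluster 5 to those in all other cells, cluster 8, cluster 4 and cluster 11 (panels). Circles are library 1 and triangles library 2, which mostly overlap. Against cluster 8 the replication and G2/M lists were higher and collagens lower, and against cluster 11 these directions were turned around.

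In the lists of signalling genes few members were called, beside 1.52% higher and 4.56% lower over all genes, and with so few members the shares cannot be set against these. Of 11 Notch pathway genes past the level, the ligand gene JAG1 was higher than in all other cells (0.206 and 0.222 UMIs per 10000 against 0.0994 and 0.109), while the ligand gene DLL1 (log2 ratio −1.59) and the receptor gene NOTCH1 (−1.11) were lower. Of 4 FGF ligand genes past the level, FGF5 (0.0769 and 0.0837 against 0.0355 and 0.0391) and FGF7 were higher and none was lower. Of the 10 FGF receptor and feedback genes, PHLDA1 was higher (0.78) and the ERK phosphatase gene DUSP6 lower (−1.07). Of the 7 Wnt ligand and inhibitor genes, WNT5B (0.634 and 0.657 against 0.307 and 0.317) and SFRP1 (0.73) were higher, and SFRP4 (−0.99) and SFRP2 (−2.36) were lower. The secreted Wnt inhibitors of this list were thus divided. Against clusters 8 and 11 no FGF ligand gene was called higher, and against clusters 8, 4 and 11 no Wnt gene was.

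Among 14 genes of the TGF-beta family none was higher, and 3 were lower, namely INHBA, encoding an activin subunit (0.0353 and 0.0443 against 0.475 and 0.405), which passed the level through the other cells alone, the activin antagonist gene FST (−1.24) and CHRD (−0.93), which was chosen after its values were seen. Of 9 insulin-like growth factor genes, IGFBP5 and STC2 (1.16) were higher, and IGF2 was lower at 3.46 and 4.90 UMIs per 10000 against 8.96 and 11.5. IGF2 differed between the libraries of cluster 5 and of all other cells in the same direction. Of 15 cytokine and growth factor genes CLCF1 was higher (0.67), and the chemokine genes CXCL5, CCL2 (−3.36) and CXCL12 (−2.85) were lower, of which CXCL12 was chosen after its values were seen. The 2 EGF family genes, the 15 immediate early genes and the 80 ribosomal protein genes past the level gave no call against all other cells. Neither did the 12 collagen, 36 nucleolus and 19 cholesterol genes. In this comparison 1.52% of all genes were higher and 4.56% lower.

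Of 35 matrix, matricellular and protease genes 4 were higher in cluster 5 than in all other cells and 3 were lower, beside 1.52% and 4.56% of all genes. Against cluster 8, where 5.37% of all genes were higher and 2.89% lower, none of 34 was higher and 5 were lower (ADAMTS5, FN1, TIMP3, LOX and LAMA4, chosen after their values were seen). In the comparison with all other cells, SPP1, encoding osteopontin, was at 1.18 and 1.05 against 0.693 and 0.614. LUM, encoding the collagen-binding proteoglycan lumican, was at 4.52 and 4.41 against 2.65 and 2.64. BGN, encoding the related proteoglycan biglycan, was at 0.0518 and 0.0763 against 0.438 and 0.419, and THBS2, a thrombospondin gene, had a log2 ratio of −2.11. The others called against all other cells were SERPINE2 (0.60), the collagen cross-linking enzyme gene LOX (0.62) and THBS1 (−0.93), chosen after their values were seen. Among the 7 p53 targets past the level, CDKN1A (−0.71) and TP53INP1 (−0.91) were lower and none was higher.

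Endothelial and immune markers were sparse in cluster 5, and glial and pericyte or smooth muscle markers were near the level of all other cells. The 9 endothelial markers summed to 0.0149 and 0.0156 UMIs per 10000 against 0.0355 and 0.0361 in all other cells, with 4 genes at 0 and VWF the most abundant. The 8 immune markers summed to 0.0236 and 0.0189 against 0.0258 and 0.0278, with 3 genes at 0 and CD68 the most abundant. No endothelial or immune marker reached the level of 0.05. Of the 6 glial markers 4 were at 0, and S100B made up 99.9% of the list's UMIs. The glial list summed to 0.317 and 0.290 against 0.332 and 0.307. The 11 pericyte and smooth muscle markers summed to 8.45 and 8.43 against 7.82 and 7.74. Of this sum ACTA2, the smooth muscle actin gene that cultured myoblasts also express, was 84.5%, and 2 genes were at 0.

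The fibro-adipogenic and adipocyte list was higher, with sums of 15.4 and 14.9 UMIs per 10000 in cluster 5 against 10.3 and 10.0 in all other cells, and 22.2 and 20.9 in cluster 8. DCN, encoding the proteoglycan decorin, made up 65.2% of these UMIs, LUM was the 1 gene called higher of 5 past the level, and 2 of the 13 genes were at 0. PDGFRA, the defining receptor gene of fibro-adipogenic cells, was at 0.230 and 0.208 against 0.330 and 0.315 in all other cells. The level was highest in cluster 9 (1.63 and 1.53), which gave 4177 PDGFRA UMIs, and in cluster 7 (1.23 and 1.74), which gave 322, and clusters 1, 2, 3, 6, 12 and 14 were below cluster 5 in both libraries. After thinning to 5000 UMIs a PDGFRA UMI was found in 10.1% of the cells of cluster 5, in 51.9% of cluster 9, in 12.3% of cluster 8, in 10.3% of cluster 4 and in 13.2% of cluster 11. The unthinned shares were 26.1%, 91.8%, 27.0%, 30.8% and 38.5%. DCN and LUM are also members of the matrix list, but not of the collagen list. Their part in the matrix sum of cluster 5 was not computed.

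Among the cells of cluster 5 a few genes varied more than counting alone would give. In cells thinned to 5000 UMIs, 3230 genes had a mean of 0.2 UMIs or more in both libraries. Their median variance-to-mean ratio was 1.04 in library 1 and 1.05 in library 2. Thinning and low means pull this ratio towards that of counting alone, so the median does not show that most genes varied by counting alone. The highest ratio was that of S100A4, a calcium-binding protein gene (7.75 and 7.06), followed by IGF2 (6.19 and 6.79) and COL1A1 (5.97 and 6.26). VIM, encoding the intermediate filament vimentin (6.02 and 5.62), IGFBP3 (4.76 and 5.26), COL1A2 (4.47 and 4.82) and ID1, an inhibitor of myogenic helix-loop-helix factors (3.96 and 4.07), came next. COL3A1 (3.49 and 3.76), IGFBP5 (3.35 and 3.84) and APOA1 (4.20 and 2.97) completed the 10. Of the 20 genes ranked highest in each library 18 were the same, so the unevenness recurred between libraries of these cells.

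Cluster 5 was also mixed in the cell cycle. Of 5000 UMIs, a cell of cluster 5 had a median of 13 S phase UMIs in library 1 and 14 in library 2, with quartiles of 8 and 19 and of 9 and 20. The range was 1 to 50 in library 1 and 0 to 43 in library 2. In cluster 8 the median was 4 in both libraries, with quartiles of 3 and 7 and of 2 and 7, and in cluster 11 it was 23 and 22, with quartiles of 19 and 27 and of 18 and 27. The middle of cluster 5 thus lay between these clusters, and its spread covered part of each. For G2/M the medians were 15 and 14 in cluster 5, 6 in each library of cluster 8, 27 and 26 in cluster 11 and 70 and 66 in cluster 4.

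**Figure D5:**
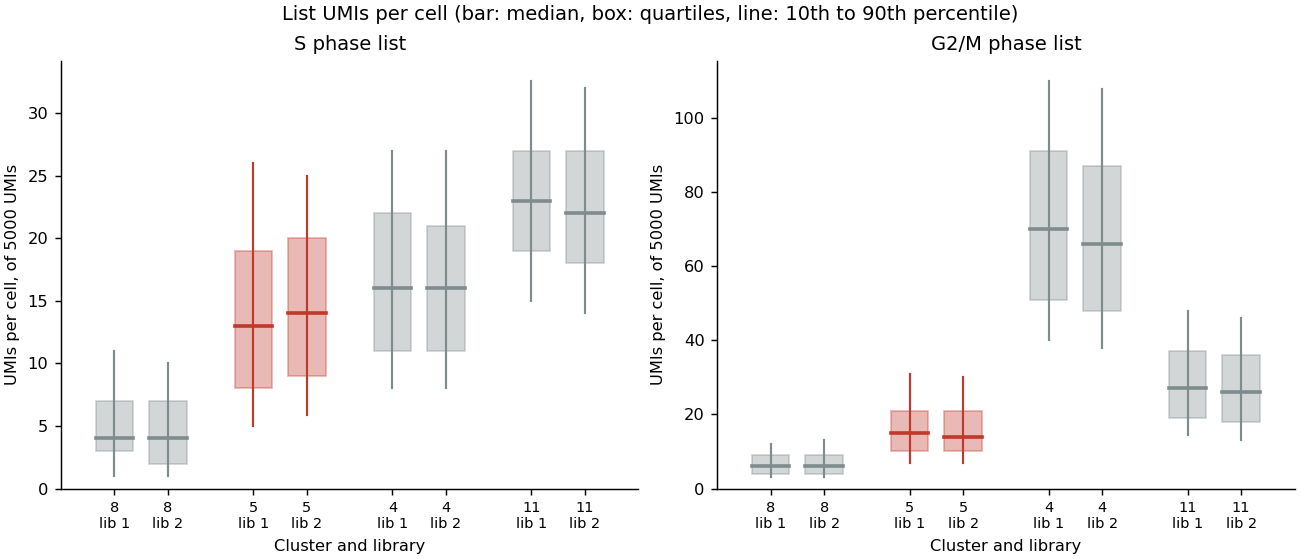
UMIs of the S phase list (left) and the G2/M list (right) per cell, out of 5000 UMIs to which each cell was thinned, in clusters 8, 5, 4 and 11 and in each library. Thick bars are medians, boxes the quartiles and lines the 10th to 90th percentile of cells, with cluster 5 in red at S phase medians of 13 and 14.

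The 424 cells of cluster 5 with at most 8 S phase UMIs were set against the 422 cells with at least 20, to see what else went with these genes inside the cluster. These are the ends of a continuous range and not cell types, since 224 cells lay at the lower limit or 1 UMI beside it and 172 at the upper. Of 8341 genes 459 (5.5%) were higher at the S phase end and 95 (1.14%) were lower, S phase genes included. Beyond the S phase list, 12 of 14 licensing and helicase genes and 13 of 17 fork and nucleotide genes were higher and none was lower. MCM10, which acts with the helicase, was at 0.129 and 0.132 UMIs per 10000 at the low end and 0.979 and 1.07 at the high end. BRCA2, of recombination repair, had a log2 ratio of 2.83, MCM3 of 2.39 and SMC2 of 2.35.

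The G2/M list changed little in sum, from 31.5 and 31.0 UMIs per 10000 at the low end to 34.7 and 35.2 at the high end. Of its 49 genes past the level 20 were higher and 8 lower, beside 5.5% and 1.14% of all genes. Its members were divided, with UBE2C, of the anaphase-promoting complex, higher (1.5) and the survivin gene BIRC5 lower (−0.88). Among other genes ACACB was higher (0.423 and 0.430 against 1.58 and 1.69), and HIST1H2BB, a core histone gene (−1.58), the tubulin gene TUBA1C (−1.51) and FGF7 were lower. FGF7 was at 2.42 and 2.57 at the low end and 1.53 and 1.40 at the high end. Apart from ACACB, MCM3, SMC2 and FGF7 these genes were chosen after their values were seen.

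The myogenic genes of cluster 5 were mostly alike at both ends of the S phase range. MYF5 was at 1.33 and 1.30 UMIs per 10000 at the low end and 1.28 and 1.36 at the high end. MYOD1 was at 1.90 and 1.88 and at 1.72 and 1.98. DES was higher in both libraries at the high end, with 0.970 and 0.937 at the low end and 1.27 and 1.57 at the high end, below 1.5-fold in library 1. None of 22 myogenic regulators, 16 muscle structure genes and 12 collagen genes was called, beside 5.5% higher and 1.14% lower over all genes. PAX3 was at 0.0168 and 0.0257 at the low end and 0.0096 and 0.0185 at the high end, and PAX7 at 0.0028 and 0.00367 and at 0.016 and 0.00927, too few UMIs of either gene to tell a difference.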

How the data were processed

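The data were 2 single-cell libraries of the same cells of 1 calf. Cell Ranger 3.0.2 was used by the authors for alignment (genome ARS-UCD1.2), UMI counting and merging of both libraries. The deposited counts are whole numbers of UMIs per gene and cell, 145631299 in library 1 and 137818568 in library 2. The authors also deposited, per cluster, an average score, which is the mean UMI count scaled to a common total of 14889 UMIs, with log2 fold changes and p-values that were not used. No column of another sample was present.

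The averages were turned back into UMI sums, and cells were assigned in 30 rounds of elimination, after which 0 of 252240 pairs of gene and cluster differed from the deposited table. UMIs were summed per cluster and library with Python 3.11.15, numpy 2.4.6 and scipy 1.17.1. Log2 ratios are of plain shares of UMIs, with 0.5 UMI added to each sum, over genes whose level, averaged over both groups and libraries, was at least 0.05 UMIs per 10000, so that a gene may lie below it in 1 group. A call is 1.5-fold or more in each library. Intervals are exact at 95% and cover counting error only. For thinned values 5000 UMIs were drawn per cell. Doublets were kept. Scrublet in scanpy 1.11.5 set automatic thresholds that marked 0 and 1 cells, so the 8% of cells with the highest scores were left out in an alternative, a choice made after this was seen. The tests of edgeR 4.0.16 and DESeq2 1.42.0 were run on the library sums as alternatives only.

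The members, gene lists and comparisons were chosen with earlier results of these data known. The named genes are PAX3, PAX7, MYF5, MYOD1, MYOG and DES, the 10 highest and 10 lowest called genes at 1 UMI per 10000 or more against all other cells, 5 and 5 against each compared cluster, up to 2 highest and 2 lowest members of each list, and the 10 most variable genes. A few genes that this rule names are not reported here. None of the 13 mitochondrially encoded genes listed was found by its symbol, so that list gave no value. No genome of the build was at hand, so no coordinates are given. Other alternatives were another scaling, no level filter, cells assigned by profile, equal weights of the other clusters, and leaving out shallow cells or 1 library.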

Additional observations from a re-analysis of the deposited data

How the results depend on the processing

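The log2 ratio of PAX3 to all other cells was 0.79 to 1.34 over the alternatives run for it. That of MYF5 was 0.34 to 0.51 and that of the S phase list 0.11 to 0.20. None of these ratios changed sign, but the balance of higher and lower genes against all other cells turned in the edgeR and DESeq2 tests, as the counts below show. Of the alternative values 75 lay within 1.5 times the main count or within 1 SD of the libraries of the main ratio, and 43 did not. The G2/M list, at −1.16, was at −1.20 without doublets and −0.99 with the other clusters weighted equally, which also gave 76 genes higher than all other cells in place of 128. Counts of called genes depended on the rule, given below as higher and lower genes against all other cells, cluster 8, cluster 4 and cluster 11. By the 1.5-fold rule they were 128 and 383, 451 and 243, 69 and 352, and 131 and 295. With no filter on low levels they were 2167 and 1056, 968 and 793, 425 and 939, and 612 and 1468. Without the filter, the added 0.5 UMI shifts the ratios of genes with almost no UMIs wherever the compared UMI totals differ. These counts therefore do not show the balance of the data. With edgeR at an adjusted p under 0.05 they were 1626 and 1607, 1781 and 1339, 823 and 1036, and 1045 and 1126. With the library as a replicate block in edgeR they were 2804 and 2688, 2521 and 2158, 2079 and 1897, and 1832 and 1901. With DESeq2 they were 1375 and 1301, 1048 and 596, 376 and 566, and 520 and 540. The numbers of the libraries pair the sums, since both sums of a pair come from 1 library. Without 1 library the lower genes against cluster 8 were 383 to 438, the higher genes against cluster 4 were 118 to 122, and those against cluster 11 were 208 to 274 higher and 460 to 517 lower. The tests by edgeR and DESeq2 treat 2 library sums of 1 calf as replicates and were made on the counts that formed the clusters, so their counts of genes are not evidence of a difference between independent samples. What depth limits is PAX3 and PAX7, which rest on 53 and 15 UMIs in cluster 5.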
